A study of Mus musculus with 8 samples.

Results

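The genes described here are 10 mouse genes of purine receptors and adenosine metabolism, chosen by name from the gene column of all 4 deposited tables. They are the ATP-gated channels P2rx1, P2rx4 and P2rx7, the adenosine receptors Adora2a and Adora2b, the surface enzymes Entpd1 and Nt5e, the nucleoside transporter Slc29a1, and the adenosine-removing enzymes Ada and Adk. All 10 were found in each table of 23278 genes, and all 10 are autosomal. The study sorted thymocytes of C57BL/6 mice by flow cytometry and sequenced ribosome-depleted RNA pools with a stranded kit, to ask what loss of the histone deacetylase Hdac3 does to gene expression at the double-positive stage of T cell development. Hdac3KO DP2 and WT DP2 cells were GFP+CD4+CD8+ thymocytes with high CD5 and intermediate TCRβ, and Hdac3KO DP1 and WT DP1 cells were GFP+CD4+CD8+ thymocytes with low CD5 and low TCRβ. Hdac3KO animals were Hdac3F/F LCK-Cre+, so that deletion was driven by an Lck promoter, known to act in T-lineage cells from early stages. WT animals were Hdac3+/+, and whether they carried the Cre was not clear from the labels, which also give neither age nor sex nor what marked the cells with GFP. Each of the 4 groups had 2 libraries, made from pooled RNA.

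ATP outside cells opens P2X channels. The surface enzymes CD39 (Entpd1) and CD73 (Nt5e) break ATP down in steps to adenosine, which acts on G protein-coupled receptors, of which Adora2a and Adora2b raise cAMP. The transporter ENT1 (Slc29a1) carries adenosine across the membrane, where adenosine deaminase (Ada) turns it into inosine and adenosine kinase (Adk) turns it into AMP. The thymus is known for its high adenosine deaminase activity, and inherited loss of the enzyme in humans causes severe combined immunodeficiency. In mm10 (GENCODE M21) all 10 are protein-coding genes. P2rx1 lies at chr11:72999103-73015200 and Adora2b at chr11:62248984-62266453, both on the plus strand. P2rx7 lies at chr5:122643911-122691432 and P2rx4 at chr5:122707544-122729738, both on the plus strand. Adora2a lies at chr10:75316877-75334784, Entpd1 at chr19:40612366-40741602, Nt5e at chr9:88327197-88372092 and Adk at chr14:21052574-21448569, on the plus strand. Slc29a1 lies at chr17:45585200-45599606 and Ada at chr2:163726584-163750239, on the minus strand.

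For every gene and group the authors deposited 1 FPKM, a level per length of transcript and size of library, with their own test, and no value per library was analysed here, so depth and spread between libraries are not shown and the p-values measure only the spread between 2 libraries a group, which may be technical. A gene is said to have risen or fallen where the deposited q was 0.05 or less. Fold changes are log2 ratios of the deposited FPKM, and ± is a standard error worked back from the deposited p. Each table was scaled on its own, so a group's FPKM differ between the table that compares genotypes and the table that compares stages. The median gene with at least 10 FPKM in both groups stood at -0.33 (log2) in WT DP2 against WT DP1 cells, and at -0.11, 0.12 and -0.01 for Hdac3KO against WT DP1 cells, Hdac3KO against WT DP2 cells and Hdac3KO DP2 against Hdac3KO DP1 cells. Hdac3 itself was listed at 15.4 FPKM in Hdac3KO DP2 cells against 29.7 in WT DP2 cells (q = 0.0131), and at 11.7 FPKM in Hdac3KO DP1 cells against 38.1 in WT DP1 cells (q = 0.000879), in the authors' deposited tables. Xist was at 139 FPKM in Hdac3KO DP2 cells and 0.243 in WT DP2 cells, and at 208 FPKM in Hdac3KO DP1 cells and 0.0945 in WT DP1 cells, in the authors' deposited tables. The Y-linked Kdm5d was at 0.322 FPKM in Hdac3KO DP2 cells and 34.6 in WT DP2 cells, and at 0.264 FPKM in Hdac3KO DP1 cells and 20.0 in WT DP1 cells, in the authors' deposited tables. Genotype and sex of the animals therefore cannot be told apart in any comparison of Hdac3KO with WT cells. Markers of B cells summed to between 7.13 and 10.4 FPKM in every group and table, erythroid markers to between 1.38 and 3.10, and thymic epithelium markers to between 6.48 and 12.8. Markers of NK and gamma-delta T cells summed to between 17.7 and 76.8 FPKM, and those of regulatory T cells to between 40.0 and 116. Of the 3 NK and gamma-delta markers tested between the WT stages, 1 rose and 1 fell, where 5.56% and 16.8% of all tested genes did. Gzma fell to 19.7 FPKM in WT DP2 cells against 74.5 in WT DP1 cells. Il2rb rose to 0.906 FPKM in WT DP2 cells against 0.152 in WT DP1 cells (q = 0.0340). The median of the 3 was 1.02 (log2). The erythroid genes Hbb-b1 and Hba-a1 were not found. Alas2 (erythroid, q = 0.0117) and Psmb11 (thymic epithelium, q = 0.00154) rose in Hdac3KO DP1 against WT DP1 cells. Epcam (thymic epithelium, q = 0.0357) fell between the WT stages. In each of these 2 comparisons 2 thymic epithelium markers were tested, and the other lay the opposite way and did not pass. Psmb11 stood at 1.19 (log2) where the median of the 2 was 0.004, and Epcam at -1.38 where it was -0.34. In bulk RNA, fewer cells of a kind and less RNA per cell cannot be told apart.

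The sequences before the transcription start are printed for 4 members: Ada, Adora2b and P2rx1, which fell between the stages in WT cells and had close levels in both Hdac3KO stages, and P2rx7, the member that rose in WT cells. They come from RefSeq (GRCm38.p6), run 5′ to 3′ on the gene's own strand and stop before the first annotated exon base. Ada lies at chr2:163750240-163750489 (minus strand), Adora2b at chr11:62248734-62248983 (plus strand), P2rx1 at chr11:72998895-72999102 (plus strand) and P2rx7 at chr5:122643677-122643910 (plus strand). Capitals mark matches to 6 motifs searched on both strands.
Ada: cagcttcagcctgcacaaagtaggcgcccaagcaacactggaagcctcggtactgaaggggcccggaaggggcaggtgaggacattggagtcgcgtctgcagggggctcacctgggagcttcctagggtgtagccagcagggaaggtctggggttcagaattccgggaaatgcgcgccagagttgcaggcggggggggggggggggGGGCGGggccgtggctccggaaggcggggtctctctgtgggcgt
Adora2b: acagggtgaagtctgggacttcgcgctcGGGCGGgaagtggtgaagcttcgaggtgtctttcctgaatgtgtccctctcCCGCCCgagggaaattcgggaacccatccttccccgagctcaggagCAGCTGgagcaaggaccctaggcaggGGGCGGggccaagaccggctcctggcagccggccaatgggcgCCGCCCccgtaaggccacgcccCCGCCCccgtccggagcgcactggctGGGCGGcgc
P2rx1: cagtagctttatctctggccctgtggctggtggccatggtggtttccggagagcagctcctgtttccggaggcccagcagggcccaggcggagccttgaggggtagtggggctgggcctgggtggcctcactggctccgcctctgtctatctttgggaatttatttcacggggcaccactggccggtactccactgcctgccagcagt
P2rx7: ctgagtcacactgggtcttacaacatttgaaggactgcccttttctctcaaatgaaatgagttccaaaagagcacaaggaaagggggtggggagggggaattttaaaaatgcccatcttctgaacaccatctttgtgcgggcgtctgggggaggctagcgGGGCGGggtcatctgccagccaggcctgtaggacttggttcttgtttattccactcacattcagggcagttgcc
The motifs, with the share of all 32851 promoter windows of that table that hold each, were AGGTCA of nuclear receptors (14.02%), CAGCTG of E proteins (13.001%), TGTGGT of Runx factors (14.05%), the GC box GGGCGG (32.7%), the cAMP response element TGACGTCA (1.55%) and TATAAA (12.4%). Adora2b held 6 GC boxes and 1 E-protein motif in the 250 bases shown. Ada held 1 GC box between bases -44 and -39, counted back from the start, and P2rx7 held 1 between bases -90 and -85 and another between bases -11 and -6, which lie in the 16 bases left off here because an annotated exon begins there. P2rx1 held none of the 6 motifs in the 208 bases shown or the 42 left off for the same reason. The GC box was thus in 3 of the 4 windows, which were chosen by the levels of their genes. Among the members not printed, Nt5e and Adk also held it, and Slc29a1, P2rx4 and Entpd1 did not. A match describes the letters alone.

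Counted over the members, 1 rose (Ada) and 1 fell (Slc29a1) of the 8 tested between Hdac3KO DP2 and WT DP2 cells, where 10.8% of the 10674 genes tested passed, 6.44% higher and 4.32% lower. Between Hdac3KO DP1 and WT DP1 cells, 2 of 7 fell (Slc29a1 and Adk) and 0 rose, where 23.6% of 10511 genes passed, 10.7% higher and 12.9% lower. No member was higher there at an unadjusted Cuffdiff p under 0.05 either. Between Hdac3KO DP2 and Hdac3KO DP1 cells, 1 of 8 fell (Slc29a1) and 0 rose, where 6.43% of 10231 genes passed, 1.78% higher and 4.65% lower. At an unadjusted Cuffdiff p under 0.05, 1 member, P2rx7, was higher there. Between WT DP2 and WT DP1 cells, 1 of 8 rose (P2rx7) and 5 fell (P2rx1, Adora2b, Slc29a1, Ada and Adk), where 22.3% of 10851 genes passed, 5.56% higher and 16.8% lower. Relative to the median gene of that last table, 2 members were higher (P2rx4 and P2rx7) and 2 lower (P2rx1 and Adk), where 10.9% of genes were higher and 6.46% lower. With a trend of the log2 change over gene length removed from that table, Adk alone of the 5 stayed lower, and P2rx1 missed the threshold (-0.82, q = 0.1002), as did Adora2b, Slc29a1 and Ada. In the other 3 comparisons the members' counts relative to the median gene were the same, beside 4.35% higher and 5.73% lower over all tested genes (DP2 cells), 13.6% and 8.92% (DP1 cells), and 1.81% and 4.58% (Hdac3KO stages). The median tested member stood at -0.80 in DP2 cells between genotypes, beside 0.10 over all tested genes, and at -0.97 between WT stages, beside -0.27. In the other 2 comparisons it stood at -0.26 beside -0.10 (DP1 cells) and at -0.04 beside 0.01 (Hdac3KO stages). The median of -0.80 in DP2 cells was not a fall shared by all members. At an unadjusted Cuffdiff p under 0.05, 3 members were higher and 2 lower in that comparison.

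The P2X channels went in different directions between the stages in WT cells. P2rx7, the channel that opens at high ATP and can form a large pore, was at 5.57 FPKM in WT DP2 cells against 0.459 in WT DP1 cells, in the authors' deposited table. P2rx1, a fast-desensitising channel, was at 7.20 FPKM in WT DP2 cells against 17.4 in WT DP1 cells, in the authors' deposited table. P2rx7 therefore rose 12.1-fold (log2 3.60 ± 1.07, q = 0.00738), the largest size of change among the members tested in any of the 4 comparisons, and P2rx1 fell by 1.27 ± 0.35 (q = 0.00311). The level of P2rx7 in WT DP1 cells was below that of the other tested members in that group, so the size of its rise is uncertain, with a 95% interval of 1.51 to 5.69. With a pseudocount of 1 FPKM its log2 change was 2.17. P2rx4, a channel found on the surface and in lysosomes, was at 5.50 FPKM in WT DP2 cells against 2.55 in WT DP1 cells in the authors' deposited table (log2 1.11 ± 0.46, q = 0.0639). It passed relative to the median gene of that table (1.44, q = 0.0173).

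In Hdac3KO cells no P2X channel passed the test between the stages. P2rx1 was at 12.4 FPKM in Hdac3KO DP2 cells and 12.7 in Hdac3KO DP1 cells in the authors' deposited table (log2 -0.03 ± 0.24, q = 0.981). P2rx4 was at 2.21 FPKM in Hdac3KO DP2 cells and 2.07 in Hdac3KO DP1 cells (0.09 ± 0.44, q = 0.968), in the authors' deposited table. P2rx7 was at 2.78 FPKM in Hdac3KO DP2 cells and 1.01 in Hdac3KO DP1 cells in the authors' deposited table (log2 1.47 ± 0.65, q = 0.207). The P2rx7 level was thus nominally higher at DP2 in both genotypes, and its 95% interval in Hdac3KO cells ran from 0.19 to 2.74. The level of P2rx1 was 4.47 times that of P2rx7 in Hdac3KO DP2 cells and 12.6 times in Hdac3KO DP1 cells, against 1.29 times in WT DP2 cells and 37.9 times in WT DP1 cells, on the length-scaled FPKM of the authors' deposited stage tables.

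Between the genotypes, no P2X channel passed the test at either stage. In DP2 cells, P2rx1 was at 13.7 FPKM in Hdac3KO DP2 cells and 7.49 in WT DP2 cells in the authors' deposited table (log2 0.87 ± 0.32, q = 0.0614). P2rx4 was at 2.44 FPKM in Hdac3KO DP2 cells and 5.73 in WT DP2 cells in the authors' deposited table (-1.23 ± 0.51, q = 0.0993). P2rx7 was at 3.06 FPKM in Hdac3KO DP2 cells and 5.75 in WT DP2 cells (-0.91 ± 0.51, q = 0.270), in the authors' deposited table. P2rx1 thus lay higher and the other 2 channels lower in Hdac3KO DP2 cells, short of the threshold. In DP1 cells, P2rx1 was at 12.7 FPKM in Hdac3KO DP1 cells and 15.3 in WT DP1 cells in the authors' deposited table (log2 -0.26 ± 0.27, q = 0.515). P2rx4 was at 2.06 FPKM in Hdac3KO DP1 cells and 2.25 in WT DP1 cells (-0.13 ± 0.40, q = 0.859), in the authors' deposited table. P2rx7 was not tested there by the authors and was listed at 1.004 FPKM in Hdac3KO DP1 cells and 0.403 in WT DP1 cells in the authors' deposited table. Myeloid and dendritic cells also carry P2rx7, and the 7 markers of those cells found in the table summed to 22.8 FPKM in Hdac3KO DP2 cells and 10.6 in WT DP2 cells in the authors' deposited table. Itgam, the 1 marker called, was at 15.7 FPKM in Hdac3KO DP2 cells and 1.60 in WT DP2 cells, and the other 6 summed to 7.07 FPKM in Hdac3KO DP2 cells and 8.95 in WT DP2 cells, in the authors' deposited table. The 6 also summed to 8.66 FPKM in WT DP2 cells and 4.63 in WT DP1 cells in the authors' deposited table. In both comparisons the sum of the 6 lay the same way as P2rx7. With Itgam, the sum of all 7 lay opposite to P2rx7 in DP2 cells between genotypes and the same way between the WT stages. The part of such cells in the P2rx7 level was not tested.

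P2rx7 and P2rx4 are neighbours on mouse chromosome 5, on the plus strand and 16111 bases apart (mm10, GENCODE M21). Of the other genes of the tables within 100 kb, chosen after their values were seen, Camkk2 was at 3.84 FPKM in WT DP2 cells and 3.39 in WT DP1 cells in the authors' deposited table (log2 0.18, q = 0.724). Ift81 was at 8.48 FPKM in WT DP2 cells and 4.63 in WT DP1 cells (0.87, q = 0.167), in the authors' deposited table. Anapc5, a subunit of the anaphase-promoting complex, fell to 83.2 FPKM in WT DP2 cells against 186 in WT DP1 cells in the authors' deposited table (log2 -1.16, q = 0.000835). The rise of P2rx7 was not shared by all genes around it. An exon of P2rx7 overlaps the microRNA gene Mir8115 on the same strand.

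**Figure D1:**
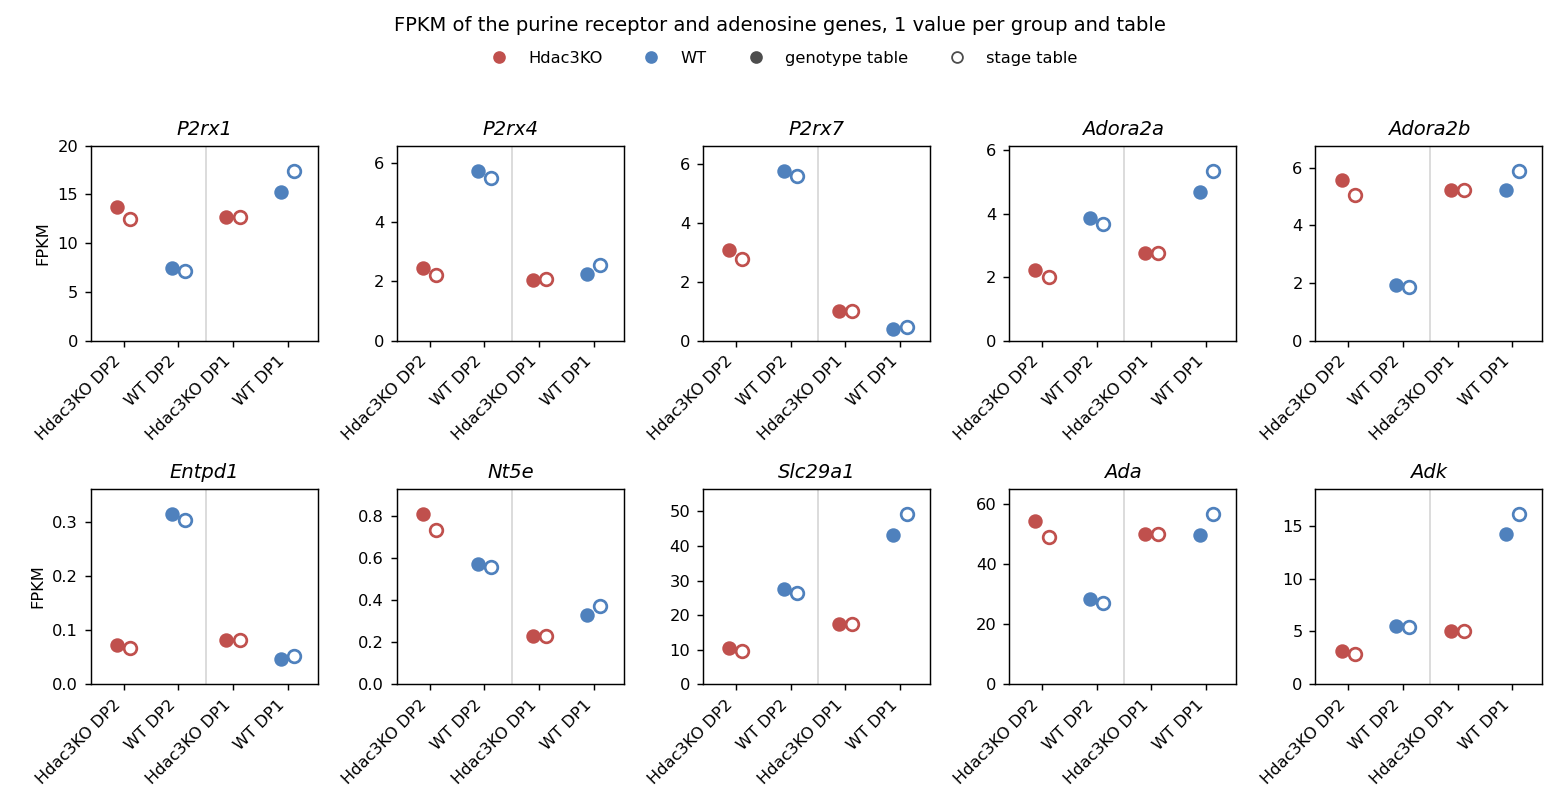
Level of each of the 10 genes (FPKM, vertical axis from 0, scaled per gene) in Hdac3KO DP2, WT DP2, Hdac3KO DP1 and WT DP1 cells, with filled points from the genotype tables, open points from the stage tables, and no error bars because the authors gave 1 value per group. Ada stands highest, between 49.1 and 56.5 FPKM in 3 groups and at 28.3 or 27.1 FPKM in WT DP2 cells, and Entpd1 and Nt5e stay under 1 FPKM.

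Of the adenosine receptors, Adora2b changed with stage in WT cells. It fell to 1.85 FPKM in WT DP2 cells against 5.88 in WT DP1 cells in the authors' deposited table (log2 -1.67 ± 0.52, q = 0.0120). Relative to the median gene of that table the difference was -1.34 and missed the threshold (q = 0.0573). In Hdac3KO cells Adora2b was at 5.07 FPKM in Hdac3KO DP2 cells and 5.23 in Hdac3KO DP1 cells in the authors' deposited table (-0.04 ± 0.34, q = 0.979). Against WT cells it was at 5.58 FPKM in Hdac3KO DP2 cells and 1.92 in WT DP2 cells in the authors' deposited table (1.54 ± 0.57, q = 0.0574). In DP1 cells it was at 5.22 FPKM in Hdac3KO DP1 cells and 5.21 in WT DP1 cells (q = 0.991), in the authors' deposited table. WT DP2 cells thus had the 1 low level among the 4 groups.

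Adora2a passed no test. It was at 2.22 FPKM in Hdac3KO DP2 cells and 3.85 in WT DP2 cells in the authors' deposited table (log2 -0.79 ± 0.42, q = 0.234). In DP1 cells it was at 2.76 FPKM in Hdac3KO DP1 cells and 4.67 in WT DP1 cells (-0.76 ± 0.32, q = 0.0737), in the authors' deposited table. The values lay below those of WT cells at both stages by nearly the same amount. Between stages, Adora2a was at 2.01 FPKM in Hdac3KO DP2 cells and 2.75 in Hdac3KO DP1 cells in the authors' deposited table (-0.45 ± 0.36, q = 0.651). In WT cells it was at 3.68 FPKM in WT DP2 cells and 5.34 in WT DP1 cells (-0.54 ± 0.37, q = 0.305), in the authors' deposited table. The level of Adora2b was 2.52 times that of Adora2a in Hdac3KO DP2 cells and 1.90 times in Hdac3KO DP1 cells, against 0.504 times in WT DP2 cells and 1.10 times in WT DP1 cells, on the length-scaled FPKM of the authors' deposited stage tables. No error could be given for these ratios.

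The surface enzymes that make adenosine were near the bottom of the measured range and were tested by the authors in none of the 4 tables. Entpd1 was at 0.0724 FPKM in Hdac3KO DP2 cells and 0.314 in WT DP2 cells, and at 0.0824 FPKM in Hdac3KO DP1 cells and 0.0458 in WT DP1 cells, in the authors' deposited tables. Nt5e was at 0.808 FPKM in Hdac3KO DP2 cells and 0.572 in WT DP2 cells, and at 0.231 FPKM in Hdac3KO DP1 cells and 0.330 in WT DP1 cells, in the authors' deposited tables. No direction is read from either gene at these levels.

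Slc29a1 was the member that passed the test in all 4 comparisons, each time lower. The transporter fell to 10.6 FPKM in Hdac3KO DP2 cells against 27.6 in WT DP2 cells in the authors' deposited table (log2 -1.38 ± 0.34, q = 0.00134). It fell to 17.3 FPKM in Hdac3KO DP1 cells against 43.2 in WT DP1 cells (-1.32 ± 0.33, q = 0.000879), in the authors' deposited table. Its level in Hdac3KO cells was thus 38.5% of that in WT cells at DP2 and 40.0% at DP1. Between stages it fell to 9.63 FPKM in Hdac3KO DP2 cells against 17.3 in Hdac3KO DP1 cells in the authors' deposited table (-0.85 ± 0.26, q = 0.0239). In WT cells it fell to 26.5 FPKM in WT DP2 cells against 49.1 in WT DP1 cells (-0.89 ± 0.29, q = 0.0167), in the authors' deposited table. In WT cells the stage difference was -0.56 relative to the median gene of its table and then missed the threshold (q = 0.179). The other 3 calls held relative to the median gene. One exon of Slc29a1 overlaps Gm17080 on the opposite strand.

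Ada and Adk, the enzymes that remove adenosine inside the cell, had unlike patterns. Ada rose to 54.2 FPKM in Hdac3KO DP2 cells against 28.3 in WT DP2 cells in the authors' deposited table (log2 0.94 ± 0.26, q = 0.00739). In DP1 cells it was at 50.0 FPKM in Hdac3KO DP1 cells and 49.5 in WT DP1 cells in the authors' deposited table (0.01 ± 0.25, q = 0.979). Between stages it was at 49.1 FPKM in Hdac3KO DP2 cells and 49.9 in Hdac3KO DP1 cells in the authors' deposited table (-0.02 ± 0.22, q = 0.982). It fell to 27.1 FPKM in WT DP2 cells against 56.5 in WT DP1 cells (-1.06 ± 0.28, q = 0.00207), in the authors' deposited table. The level of Ada was thus low in WT DP2 cells alone among the 4 groups. Relative to the median gene, the WT stage difference was -0.73 and lay at the threshold (q = 0.0507). Ada stood above 92.9% of genes in Hdac3KO DP2 cells and above 87.2% in WT DP2 cells, by FPKM.

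Adk fell to 5.005 FPKM in Hdac3KO DP1 cells against 14.2 in WT DP1 cells in the authors' deposited table (log2 -1.51 ± 0.37, q = 0.000879). In DP2 cells it was at 3.16 FPKM in Hdac3KO DP2 cells and 5.55 in WT DP2 cells in the authors' deposited table (-0.81 ± 0.55, q = 0.393). It fell to 5.42 FPKM in WT DP2 cells against 16.1 in WT DP1 cells in the authors' deposited table (-1.57 ± 0.46, q = 0.00701). It was at 2.87 FPKM in Hdac3KO DP2 cells and 5.04 in Hdac3KO DP1 cells (-0.81 ± 0.45, q = 0.371), in the authors' deposited table. WT DP1 cells thus had the 1 high level of Adk. The level of Ada was 17.2 times that of Adk in Hdac3KO DP2 cells against 5.10 times in WT DP2 cells, and 9.99 times in Hdac3KO DP1 cells against 3.48 times in WT DP1 cells, on the length-scaled FPKM of the authors' deposited genotype tables.

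**Figure D2:**
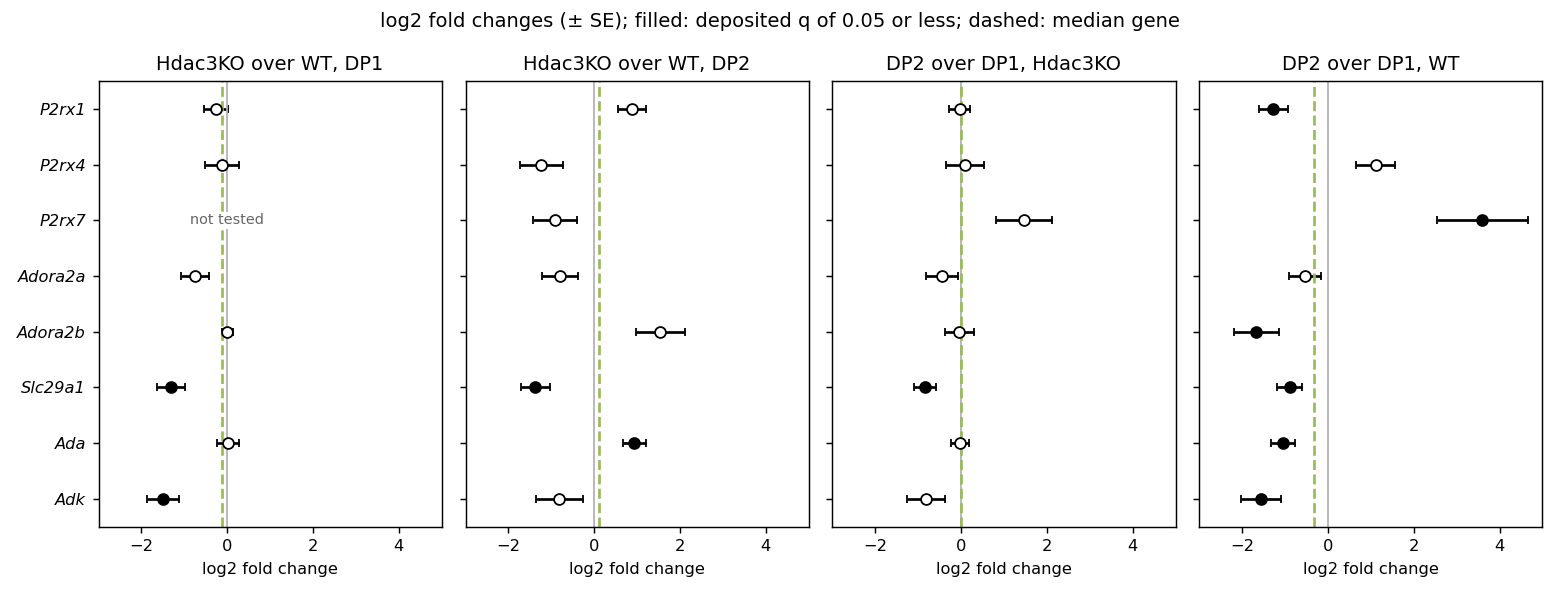
Log2 fold change (horizontal axis) of the 8 members with a test, in 4 panels for Hdac3KO over WT at DP1 and at DP2 and for DP2 over DP1 in Hdac3KO and in WT cells, with bars of 1 standard error worked back from the deposited p, filled points for q of 0.05 or less and a dashed line at the median gene. Slc29a1 lies left of 0 with a filled point in all 4 panels, P2rx7 at 3.60 in WT cells lies farthest from 0, and the bar of Adora2b at DP1 comes from a p near 1 and is imprecise.

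Ada, P2rx1 and Adora2b lay the same way as the called markers of the double-positive stage. Of these members, Ada alone passed in Hdac3KO DP2 against WT DP2 cells, and P2rx1 (q = 0.0614) and Adora2b (q = 0.0574) did not. Between the WT stages all passed, but Adora2b (q = 0.0573) and Ada (q = 0.0507) missed the threshold relative to the median gene. Of the 8 markers of that stage, 4 rose and 0 fell in Hdac3KO DP2 against WT DP2 cells, where 6.44% of tested genes rose. In WT DP2 against WT DP1 cells 5 fell and 0 rose, where 16.8% of tested genes fell. None of the 8 passed in either direction in the other 2 comparisons, where 23.6% (DP1 cells) and 6.43% (Hdac3KO stages) of tested genes did. Their summed level was 7341 FPKM in Hdac3KO DP2 cells against 3299 in WT DP2 cells, and 6865 FPKM in Hdac3KO DP1 cells against 6112 in WT DP1 cells, in the authors' deposited tables. The surface coreceptor Cd4 rose to 392 FPKM in Hdac3KO DP2 cells against 208 in WT DP2 cells in the authors' deposited table (q = 0.0183). All groups were sorted as CD4+CD8+, so Cd4, Cd8a and Cd8b1 of this list are genes of the sort itself. Of 8 markers of the selection signal, 6 fell and 0 rose in Hdac3KO DP2 against WT DP2 cells, where 4.32% of tested genes fell. In Hdac3KO DP1 against WT DP1 cells 5 fell and 0 rose, where 12.9% of tested genes fell, and Slc29a1 and Adk also fell there. In DP2 against DP1 cells 7 rose and 0 fell in either genotype, where 5.56% (WT) and 1.78% (Hdac3KO) of tested genes rose. Slc29a1 fell in both of those stage comparisons and Adk fell between the WT stages, opposite to these markers. Cd5 is 1 of the 7, and the stages were sorted by CD5, so its rise was set by the sort. Of the double-negative markers, 2 of 4 tested rose between the WT stages, where 5.56% of tested genes rose. In Hdac3KO DP2 against WT DP2 cells 3 of 4 tested fell and 1, Il2ra, rose, where 4.32% and 6.44% of tested genes did. Hhex made up most of the sum of the double-negative markers, at 208 FPKM in WT DP2 cells against 54.8 in WT DP1 cells, and the other 6 summed to 19.5 FPKM in WT DP2 cells against 7.997 in WT DP1 cells, in the authors' deposited table. The part of these differences between sorted cells in the members' values was not tested.

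**Figure D3:**
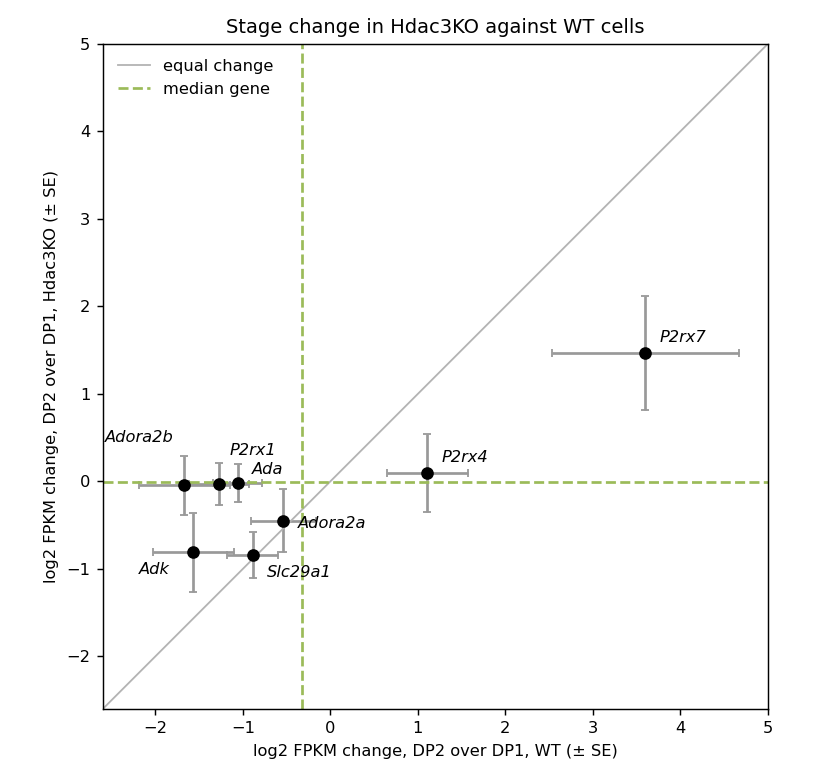
Log2 change of FPKM, DP2 over DP1, in Hdac3KO cells (vertical axis) against that in WT cells (horizontal axis) for the 8 members tested in both stage tables, with bars of 1 standard error, a line of equal change and dashed lines at the median gene of each table. Ada, P2rx1 and Adora2b lie near 0 on the Hdac3KO axis (-0.02, -0.03 and -0.04) and left of -1 on the WT axis, and Slc29a1 lies near the line of equal change.

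Whether the genotype difference itself depended on stage was tested as the difference between the log2 changes at DP2 and at DP1. None of the 7 members that could be tested from the genotype tables passed after Benjamini-Hochberg adjustment, where 2.08% of 10144 genes did, 0.897% with the genotype difference higher at DP2 and 1.18% lower. At an unadjusted p under 0.05, without centring on the median gene, there were 3, all with the genotype difference higher at DP2. These were P2rx1 (1.14 ± 0.42, q = 0.114), Adora2b (1.54 ± 0.58, q = 0.120) and Ada (0.92 ± 0.37, q = 0.147). The stage tables, made from the same libraries, gave 1.24 ± 0.42 (q = 0.0693), 1.62 ± 0.62 (0.105) and 1.04 ± 0.35 (0.0699) for these genes in that order, and again 0 of 8 members passed and 3 had an unadjusted p under 0.05, where 3.13% of 9969 genes passed, 2.07% higher and 1.06% lower. Slc29a1 had a difference of -0.06 ± 0.47, with a 95% interval of -0.98 to 0.87, and Adora2a of -0.04 ± 0.53, and both took the other sign from the stage tables (0.04 and 0.09). P2rx4 (-1.11 ± 0.65, q = 0.345) and Adk (0.70 ± 0.66, q = 0.601) did not pass. P2rx7 could be tested from the stage tables alone (-2.13 ± 1.25, q = 0.302), so its rise in WT cells was not shown to differ from that in Hdac3KO cells. These are normal approximations on standard errors worked back from deposited p-values, with q adjusted over all genes, and no exact test can be made without values per library. The median gene stood at 0.12 between genotypes at DP2 against -0.11 at DP1, and at -0.01 between Hdac3KO stages against -0.33 between WT stages. The uncentred differences thus include a shift the same way as those of P2rx1, Adora2b and Ada. Whether these 3 keep an unadjusted p under 0.05 without that shift was not tested.

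**Figure D4:**
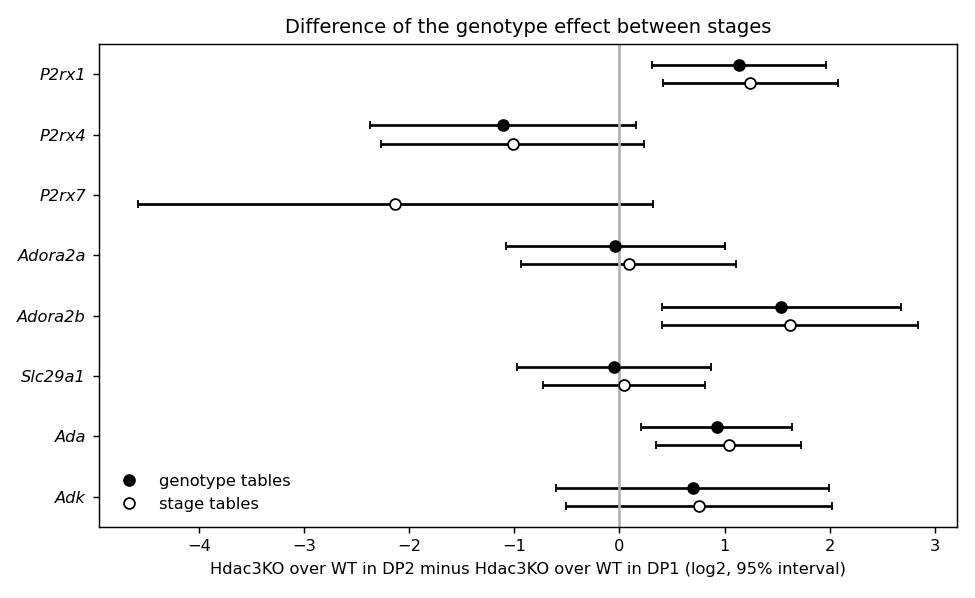
Difference of the genotype effect between stages (Hdac3KO over WT at DP2 minus that at DP1, log2) for 8 members, with 95% intervals, filled points from the genotype tables and open points from the stage tables. The intervals of P2rx1, Adora2b and Ada lie right of 0 before adjustment over all genes and without centring on the median gene. Those of the other members include 0, and P2rx7 has a point from the stage tables alone.

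The other genes of the pathway were read from 8 lists of 108 genes. In Hdac3KO DP2 against WT DP2 cells 2 of 67 tested rose and 5 fell, in Hdac3KO DP1 against WT DP1 cells 3 of 63 rose and 14 fell, in Hdac3KO DP2 against Hdac3KO DP1 cells 0 of 62 rose and 4 fell, and in WT DP2 against WT DP1 cells 4 of 69 rose and 18 fell. Over all tested genes 6.44% rose and 4.32% fell in the DP2 genotype table, 10.7% rose and 12.9% fell in the DP1 genotype table, 1.78% rose and 4.65% fell between the Hdac3KO stages, and 5.56% rose and 16.8% fell between the WT stages, and the lists' counts in the DP2 genotype table and the Hdac3KO stage table lie near those shares. Relative to the median gene, 6 listed genes were higher and 7 lower in DP1 cells between genotypes, where 13.6% and 8.92% of tested genes were. In DP2 cells between genotypes 0 were higher and 6 lower, where 4.35% and 5.73% of tested genes were. Between WT stages 8 were higher and 3 lower, where 10.9% and 6.46% of tested genes were. Between Hdac3KO stages 0 were higher and 4 lower, where 1.81% and 4.58% of tested genes were. Other receptors were few: 3 of 4 other P2X genes, 7 of 8 P2Y genes and both other adenosine receptors were tested in no table, at between 0 and 1.70 FPKM. P2ry10, a receptor of the P2Y family by name whose known ligands are lysophospholipids, was the most abundant at 90.3 FPKM in Hdac3KO DP2 cells and 113 in WT DP2 cells in the authors' deposited table (log2 -0.32 ± 0.25, q = 0.458), and it passed no test.

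De novo purine synthesis builds IMP, from which AMP and GMP are made. Of its 13 genes, all tested, 6 fell and 0 rose in Hdac3KO DP1 against WT DP1 cells, where 12.9% of all tested genes fell. The list's median was -0.76 (log2) there, beside -0.10 over all tested genes. In WT DP2 against WT DP1 cells 8 fell and 0 rose, where 16.8% of all tested genes fell, and the list's median was -0.90, beside -0.27 over all tested genes, or -0.57 relative to the median gene of that table. In Hdac3KO DP2 against WT DP2 cells 1 fell, where 4.32% of all tested genes did. Between the Hdac3KO stages 0 passed. Relative to the median gene, 7 genes of all 8 lists together were lower in DP1 cells between genotypes, and 3 between WT stages. Impdh2, which commits IMP to GMP, fell to 54.2 FPKM in Hdac3KO DP1 cells against 109 in WT DP1 cells and to 45.6 FPKM in WT DP2 cells against 123 in WT DP1 cells, in the authors' deposited tables. In the same genotype comparison at DP1, Atic, of the last steps to IMP, fell to 15.1 FPKM in Hdac3KO DP1 cells against 30.6 in WT DP1 cells, and Prps1, which makes the sugar donor PRPP, to 19.0 FPKM in Hdac3KO DP1 cells against 33.4 in WT DP1 cells, in the authors' deposited table. Between WT stages Pfas fell to 7.26 FPKM in WT DP2 cells against 16.2 in WT DP1 cells and Paics to 30.1 FPKM in WT DP2 cells against 63.1 in WT DP1 cells, both enzymes of the middle steps, in the authors' deposited table. Adss, which leads IMP towards AMP, was the gene that fell in DP2 cells, to 36.2 FPKM in Hdac3KO DP2 cells against 62.2 in WT DP2 cells in the authors' deposited table.

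Of the salvage and interconversion genes, 8 of 21 tested fell and 0 rose in Hdac3KO DP1 against WT DP1 cells, where 12.9% of all tested genes fell. In Hdac3KO DP2 against WT DP2 cells 1 of 22 rose and 1 fell, where 6.44% and 4.32% of all tested genes did. Between the Hdac3KO stages 1 of 20 fell, where 4.65% did, and between the WT stages 1 of 23 rose and 6 fell, where 5.56% and 16.8% did. Over all 8 lists together, 7 genes (DP1 cells between genotypes) and 3 genes (WT stages) were lower relative to the median gene. Pnp, which takes the inosine made by Ada further, fell to 4.08 FPKM in Hdac3KO DP1 cells against 13.2 in WT DP1 cells in the authors' deposited table (log2 -1.70, q = 0.000879). It also fell to 6.30 FPKM in WT DP2 cells against 14.9 in WT DP1 cells, in the authors' deposited table. Samhd1, which breaks down deoxynucleotides, fell to 0.450 FPKM in Hdac3KO DP2 cells against 4.54 in WT DP2 cells in the authors' deposited table (-3.33 ± 0.82). It rose to 4.29 FPKM in WT DP2 cells against 0.240 in WT DP1 cells (4.16 ± 1.03), in the authors' deposited table. Dck, the deoxycytidine kinase that also takes deoxyadenosine, rose to 100.5 FPKM in Hdac3KO DP2 cells against 59.6 in WT DP2 cells in the authors' deposited table (0.75, q = 0.0202). The rise of Dck did not pass relative to the median gene, where 0 genes of the 8 lists were higher. Gmpr, the GMP reductase, fell to 0.504 FPKM in Hdac3KO DP1 cells against 1.84 in WT DP1 cells, and Guk1, the guanylate kinase, to 7.17 FPKM in Hdac3KO DP1 cells against 13.4 in WT DP1 cells, in the authors' deposited table. Hprt, the salvage enzyme of hypoxanthine, fell to 42.6 FPKM in Hdac3KO DP2 cells against 72.8 in Hdac3KO DP1 cells, and Ahcy, which releases adenosine from S-adenosylhomocysteine, to 11.5 FPKM in WT DP2 cells against 36.5 in WT DP1 cells, in the authors' deposited tables.

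Among the other surface and secretory enzymes of nucleotides, Enpp1, which cleaves ATP to AMP and pyrophosphate, fell to 1.17 FPKM in Hdac3KO DP2 cells against 7.66 in WT DP2 cells in the authors' deposited table (log2 -2.71 ± 0.67, q = 0.00134). It rose to 7.32 FPKM in WT DP2 cells against 1.86 in WT DP1 cells (1.98), in the authors' deposited table. It was the 1 called gene of 8 tested in DP2 cells between genotypes, where 10.8% of all tested genes passed. Acpp, a phosphatase that can make adenosine from AMP, rose to 7.58 FPKM in Hdac3KO DP1 cells against 3.09 in WT DP1 cells in the authors' deposited table, the 1 called gene of 6, where 23.6% of all tested genes passed. Of the intracellular family members of CD39, Entpd7 fell to 2.08 FPKM in WT DP2 cells against 4.76 in WT DP1 cells and Entpd5 to 21.7 FPKM in WT DP2 cells against 43.6 in WT DP1 cells, in the authors' deposited table. Of 9 such enzymes tested between the WT stages 1 rose and 2 fell, where 5.56% and 16.8% of all tested genes did. Relative to the median gene, Entpd7 stood at -0.86 and Entpd5 at -0.68, and 3 genes of all 8 lists were lower there. Of the other nucleoside transporters, the sodium-coupled Slc28a2 fell to 15.7 FPKM in Hdac3KO DP2 cells against 25.9 in WT DP2 cells in the authors' deposited table (q = 0.0493). It rose to 25.1 FPKM in WT DP2 cells against 14.4 in WT DP1 cells, opposite to Slc29a1 in the WT stages, in the authors' deposited table. Slc28a3 rose to 5.19 FPKM in Hdac3KO DP1 cells against 2.82 in WT DP1 cells, and Slc29a2 (ENT2) fell to 0.917 FPKM in WT DP2 cells against 2.47 in WT DP1 cells, in the authors' deposited tables. Of 5 genes of transport and ATP release tested between the WT stages 1 rose and 1 fell, where 5.56% and 16.8% of all tested genes did. Slc29a2 stood at -1.10 relative to the median gene there.

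Of 17 genes tested in the cAMP branch below the A2 receptors, 1 rose and 1 fell in Hdac3KO DP2 against WT DP2 cells, where 10.8% of all tested genes passed, and 1 rose in Hdac3KO DP1 against WT DP1 cells, where 23.6% passed. Between the Hdac3KO stages 3 fell, where 4.65% of all tested genes fell, and between the WT stages 1 rose and 1 fell, where 22.3% passed. Pde3b, a phosphodiesterase that breaks down cAMP, fell to 4.61 FPKM in Hdac3KO DP2 cells against 11.1 in WT DP2 cells in the authors' deposited table (log2 -1.26 ± 0.31, q = 0.00134). It fell to 4.18 FPKM in Hdac3KO DP2 cells against 7.35 in Hdac3KO DP1 cells (-0.81 ± 0.24, q = 0.0122), in the authors' deposited table. Pde4d, another phosphodiesterase, rose to 23.1 FPKM in Hdac3KO DP1 cells against 10.03 in WT DP1 cells and to 20.3 FPKM in WT DP2 cells against 11.5 in WT DP1 cells, in the authors' deposited tables. Adcy6, an adenylyl cyclase, rose to 54.3 FPKM in Hdac3KO DP2 cells against 33.9 in WT DP2 cells in the authors' deposited table. The rise of Adcy6 did not pass relative to the median gene, where 0 genes of the 8 lists were higher. Between the Hdac3KO stages, the protein kinase A subunits Prkar2b and Prkaca fell to 1.74 and 9.34 FPKM in Hdac3KO DP2 cells against 5.42 and 15.6 FPKM in Hdac3KO DP1 cells in the authors' deposited table. Gnas, which holds the stimulatory G protein subunit, fell to 123 FPKM in WT DP2 cells against 222 in WT DP1 cells in the authors' deposited table. Relative to the median gene of that table Gnas stood at -0.52, and 3 genes of all 8 lists were lower there.

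The genes whose 4 log2 changes lay nearest to those of a member were sought among 7866 genes, for the 3 members called in at least 2 comparisons. Nearest to Ada were Trp53i11, Cd4 and 2310009A05Rik, at Euclidean distances of 0.0343, 0.0903 and 0.103 on the log2 scale. Nearest to Adk were Shmt1, Mthfd1 and Ran, at 0.140, 0.275 and 0.302. Shmt1 and Mthfd1 are enzymes of one-carbon folate metabolism, and Ran is the small GTPase of nuclear transport. Nearest to Slc29a1 were Tdrd5, Mrps12 and Mns1, at 0.145, 0.359 and 0.403. The 4 comparisons share their libraries, so these distances describe 4 groups and carry no test.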

How the data were processed

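RNA of 8 libraries, 2 in each of 4 groups, was compared by the authors in 4 tables, each with 2 groups. Per the submitters' processing notes, Trimmomatic 0.32, TopHat2 2.0.11 and Cuffdiff 2.1.1 were used with mm10; settings and annotation are not given in the sources used here. The authors deposited 1 FPKM value per gene and group, scaled within each table. The deposited p-value and q-value per gene are the authors' own, and the deposited q follows Benjamini-Hochberg over the genes tested in that table. The deposited test statistic, a score, gave the standard errors in one alternative only. Per the file headers, a log2 change was also given, but spreadsheet damage left it unusable in places, so log2 changes were computed here from FPKM.

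Each log2 change was divided by the normal quantile of its deposited p to give a standard error. The smallest deposited p is 5e-05, where the error is an upper bound, and near p of 1 it is imprecise. The difference of genotype effects used these errors with Benjamini-Hochberg adjustment. Python 3.11.15, pandas 2.3.3, scipy 1.17.1 and statsmodels 0.14.6 were used. Depth per library is unknown. Members, lists and markers were chosen with earlier results of these data known. From each pathway list, the called genes with the largest size of log2 change were named, at most 3 per list and comparison. For likeness, genes tested in all 4 tables whose higher group reached 5 FPKM in each were searched. Alternatives were other thresholds, a pseudocount, centring on the median gene, removal of a trend with gene length, and larger errors.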

Additional observations from a re-analysis of the deposited data

Results flagged for a closer look

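The genotype difference of the phosphodiesterase gene Pde3b differed between the stages by a test of the difference itself. The difference, DP2 minus DP1 on the log2 scale, was -1.46 ± 0.41 in the genotype tables (q = 0.0349) and -1.33 ± 0.37 in the stage tables made from the same libraries (q = 0.0313). Pde3b was at 4.61 FPKM in Hdac3KO DP2 cells and 11.1 in WT DP2 cells, and at 7.38 FPKM in Hdac3KO DP1 cells and 6.46 in WT DP1 cells, in the authors' deposited tables.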

How the results depend on the processing

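No paired analysis was possible because the files give 1 value per group and no value per library, and for the same reason no library could be left out. For Hdac3KO DP2 against WT DP2 cells, 3 members were higher (Ada, Adora2b and P2rx1) and 2 lower (P2rx4 and Slc29a1) at a q of 0.10 or less, 3 were higher when adjusted over all 4 tables, and 0 were higher when a log2 change of at least 1 was asked. Between the Hdac3KO stages 0 members were lower at a q of 0.01 or less, and 0 with a log2 change of at least 1. Between the WT stages 3 were lower at a q of 0.01 or less (Ada, Adk and P2rx1) and 2 higher at a q of 0.10 or less. Centred on the median gene, 2 were higher and 2 lower there, and with the trend over gene length removed 2 were higher and 1, Adk, lower, also with a minimum on the standard error, which was added after seeing the data. With that trend removed, 1 member was higher in Hdac3KO DP1 cells (Adora2b, 0.42, q = 0.00884, from an error set by a p near 1, and 0 with the minimum on the error), and P2rx1 took the other sign there at 0.011, with and without that minimum. Centred on the median gene, the pathway lists had 6 higher and 7 lower in DP1 cells, 0 higher in DP2 cells, and 8 higher and 3 lower between the WT stages. The stage tables turned the sign of the difference of effects of Adora2a (0.090) and Slc29a1 (0.042). The cause of these moves was not tested. Of 128 alternative values of single members with a q, 109 kept direction and call, 11 lost the call, 4 gained it and 4 changed sign. Among the 109 are 7 differences of effects with errors multiplied by 1.5 and 7 with a minimum error. These could only stay the same, because larger errors cannot make a member pass. Of 40 values with a pseudocount of 1, which have no q, 10 moved by more than their error or had none, P2rx7 between the WT stages to 2.17. In the alternatives run, 0 members passed the test of the difference of effects, an outcome fixed in advance for those with larger errors. Low FPKM limits Entpd1, Nt5e and P2rx7 in DP1 cells most.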
